A study of Rattus norvegicus with 32 samples.

Results

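The insulin-like growth factor binding proteins were followed through 16 cultures of rat epithelial cells. The probe sets were taken by annotation, each assigned to a single gene out of Igfbp2, Igfbp3, Igfbp4, Igfbp5, Igfbp6 and Igfbp7. The family itself was chosen with earlier results of these data known. All 6 genes were present, with 1 probe set each, among 15316 probe sets that carry a single gene symbol. Signals are robust multi-array average (RMA) values on the log2 scale, so a difference of 1 is a doubling. Each value given for a culture is the mean of its 2 arrays.

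The cultures were thymic epithelial cells (TEC) and hair follicle (HF) cells, profiled before and after grafting into skin. All came from Sprague-Dawley rats that constitutively express enhanced green fluorescent protein (EGFP; green rat CZ-004, act-EGFP), so the grafted and the ungrafted cells carry the transgene alike. All were grown over irradiated feeder cells of 3T3-J2, a mouse fibroblast line. Grafted cells were taken back into culture from skin grafts with fluorescent follicles on the back of nude mice. The TEC groups were ungrafted cultures (4), cultures recovered after a 1st transplantation (4) and cultures recovered after a 2nd (4). The HF groups were cultures recovered after a 1st transplantation (2) and ungrafted cultures (2). TEC donors were rats of embryonic day 16 (E16, 5 cultures), postnatal day 1 (P1, 3 cultures) or 4 months (4 cultures), and all HF cultures carry the label P5. By their labels 11 cultures were clonal and 5 were bulk, and the labels of Clone_907 and Clone_354 say bulk. Every grafted culture bears another name than the ungrafted ones, and no ungrafted culture taken through the same recovery was analysed here, so the effects of the skin, of selection, of dissociation and of further culture cannot be told apart. Tissue of origin and the donor label cannot be told apart either. The labels do not say whether the arrays of a culture came from separate RNA preparations, and p-values measure the spread between cultures.

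IGF-binding proteins are secreted proteins that hold insulin-like growth factors (IGF1 and IGF2) outside the cell, lengthen their life and limit their access to the type 1 IGF receptor. Proteases such as pappalysin cut some of them and free the bound growth factor, and several act on cells without IGF as well. In skin, IGF1 from the dermal papilla supports hair growth, and binding proteins can limit how much of it reaches the epithelium. Igfbp2 is abundant in fetal tissues, Igfbp3 and Igfbp5 can form a larger complex with the acid-labile subunit, Igfbp4 is a main substrate of pappalysin and Igfbp6 prefers IGF2. Igfbp7 is a more distant relative that binds IGF weakly and is found in matrix.

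Promoters are shown for Igfbp2 and Igfbp4, whose grafted and ungrafted TEC cultures did not overlap, and for Igfbp5, the next coding gene to Igfbp2 on chromosome 9. The 250 bases before each start site were taken from RefSeq (rat build GRCr8), which held all 6 genes, and read 5′ to 3′ on the strand of the gene. Capitals mark matches, on either strand, to any of 3 short motifs. They are the GC box, with the letters GGGCGG, the TATA box, with the letters TATAAA, and the core of the hypoxia response element, with the letters ACGTG. The windows lie at chr9:81864561-81864810 (plus strand) for Igfbp2, chr10:84491221-84491470 (plus strand) for Igfbp4 and chr9:81914188-81914437 (minus strand) for Igfbp5.
Igfbp2: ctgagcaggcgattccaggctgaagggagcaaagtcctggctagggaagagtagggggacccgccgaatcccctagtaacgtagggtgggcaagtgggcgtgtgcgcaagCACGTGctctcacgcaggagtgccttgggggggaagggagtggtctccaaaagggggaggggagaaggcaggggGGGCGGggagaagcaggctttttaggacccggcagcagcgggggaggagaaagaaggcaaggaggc
Igfbp4: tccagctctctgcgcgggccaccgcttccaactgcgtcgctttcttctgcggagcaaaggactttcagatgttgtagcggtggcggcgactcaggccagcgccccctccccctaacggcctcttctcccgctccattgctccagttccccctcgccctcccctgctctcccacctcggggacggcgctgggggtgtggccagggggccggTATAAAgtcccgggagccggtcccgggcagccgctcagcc
Igfbp5: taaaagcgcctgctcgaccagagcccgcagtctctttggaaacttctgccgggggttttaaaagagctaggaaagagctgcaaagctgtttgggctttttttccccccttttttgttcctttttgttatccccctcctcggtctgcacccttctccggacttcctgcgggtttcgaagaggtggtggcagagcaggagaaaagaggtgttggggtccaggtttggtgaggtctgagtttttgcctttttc

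The Igfbp2 window held 1 GC box, whose first base lies 66 bases before the start, and the palindrome CACGTG from 140 bases before it, which matches ACGTG on both strands. The Igfbp4 window held TATAAA 40 bases before the start. The Igfbp5 window held none of the 3 motifs. Among 33469 promoters of this length 30.5% held GGGCGG, 12.9% held TATAAA and 16.6% held ACGTG. The GC content was 64% for Igfbp2, 68.8% for Igfbp4 and 51.6% for Igfbp5, against a median of 51.2% over all promoters. The Igfbp7 window held 4 GC boxes and 1 hypoxia response core at a GC content of 74.4%, Igfbp3 and Igfbp6 held none of the motifs, and the coding gene before Igfbp3 on chromosome 14 is Igfbp1. A match is a run of letters and was not tested as a binding site.

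Array medians lay between 5.287 and 5.554, and array 1 of the grafted HF culture YR219P5_RC stood at 5.782. Pairs of arrays from the same culture had correlations of 0.9889 to 0.9979. Krt14, the keratin of basal epithelium, lay between 12.95 and 13.35 in every culture. Krt8, a keratin of simple epithelium (probe set 10751352), lay at 10.82 to 11.60 in ungrafted TEC cultures, against 6.67 to 7.12 in ungrafted HF cultures, and Isl1, a factor of the embryonic pharynx, at 6.76 to 7.69 against 4.17 to 4.55. Foxn1, a regulator in thymic epithelium, did not set the tissues apart, at 5.67 to 6.02 in ungrafted TEC and 5.13 to 6.02 in ungrafted HF cultures. Leukocyte Ptprc lay between 3.16 and 3.88 in all cultures.

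In TEC cultures Igfbp2 was the member with the largest difference between grafted and ungrafted cultures. Igfbp4 differed by less, in the other direction, and its grafted and ungrafted TEC cultures did not overlap either. The Igfbp2 signal was 7.99, 7.56, 5.55 and 6.93 in the ungrafted TEC cultures PRE16cl11_VII, PRP1cl11_VII, PRP4mo_bulk and PRP4mo_Cl09. After a 1st transplantation it was 8.90, 9.17, 9.94 and 8.25 in Clone_217, Clone_218, Clone_57 and Clone_907. After a 2nd it was 9.06, 10.02, 9.68 and 9.38 in Clone_287, Clone_347, Clone_194 and Clone_354. All 8 grafted TEC cultures lay above all 4 ungrafted ones, and cultures after a 1st and a 2nd transplantation overlapped. The group means were 7.0 ± 1.1 before grafting, 9.07 ± 0.70 after a 1st and 9.53 ± 0.41 after a 2nd transplantation (SD, n = 4 each).

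Igfbp2 rose by 2.53 ± 0.50 (log2, SE) after the 2nd transplantation relative to ungrafted TEC, which is 5.78-fold (adjusted p = 0.0177, limma with Benjamini-Hochberg adjustment over the 15316 probe sets). Called here means an adjusted p under 0.05: 1 of the 6 members was called, and 3.86% of all probe sets were called in this comparison. After the 1st transplantation the difference was 2.06 ± 0.50, or 4.17-fold, and missed the threshold (adjusted p = 0.0864), with 0 of 6 members and 0.516% of all probe sets called. Over both grafted groups Igfbp2 rose by 2.30 ± 0.43 relative to ungrafted TEC, or 4.91-fold (adjusted p = 0.0116), again as 1 of 6 members called, with 4.83% of all probe sets called. Between the 2nd and the 1st transplantation it differed by 0.47 ± 0.50 (adjusted p = 1.00), and 0 of 6 members and 0% of all probe sets were called, while 532 probe sets had an unadjusted p under 0.05.

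The call after the 2nd transplantation did not hold among clonal cultures alone (2.10, adjusted p = 0.0714), without PRP4mo_Cl09 (2.50, adjusted p = 0.0527) or without Clone_347 (2.37, adjusted p = 0.0515). The call over both grafted groups held under every alternative run, at log2 differences of 1.81 to 2.62 and adjusted p of 0.0468 or lower. Its smallest adjusted p, 2.04e-06, came from a fit on arrays with culture as a random block. Such a fit can understate the Igfbp2 error. The Igfbp2 SD was 0.781 between cultures of a group and 0.115 between arrays of a culture. The lowest ungrafted value, in PRP4mo_bulk, was also the least even of the Igfbp2 pairs, with its arrays 0.376 apart.

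**Figure D1:**
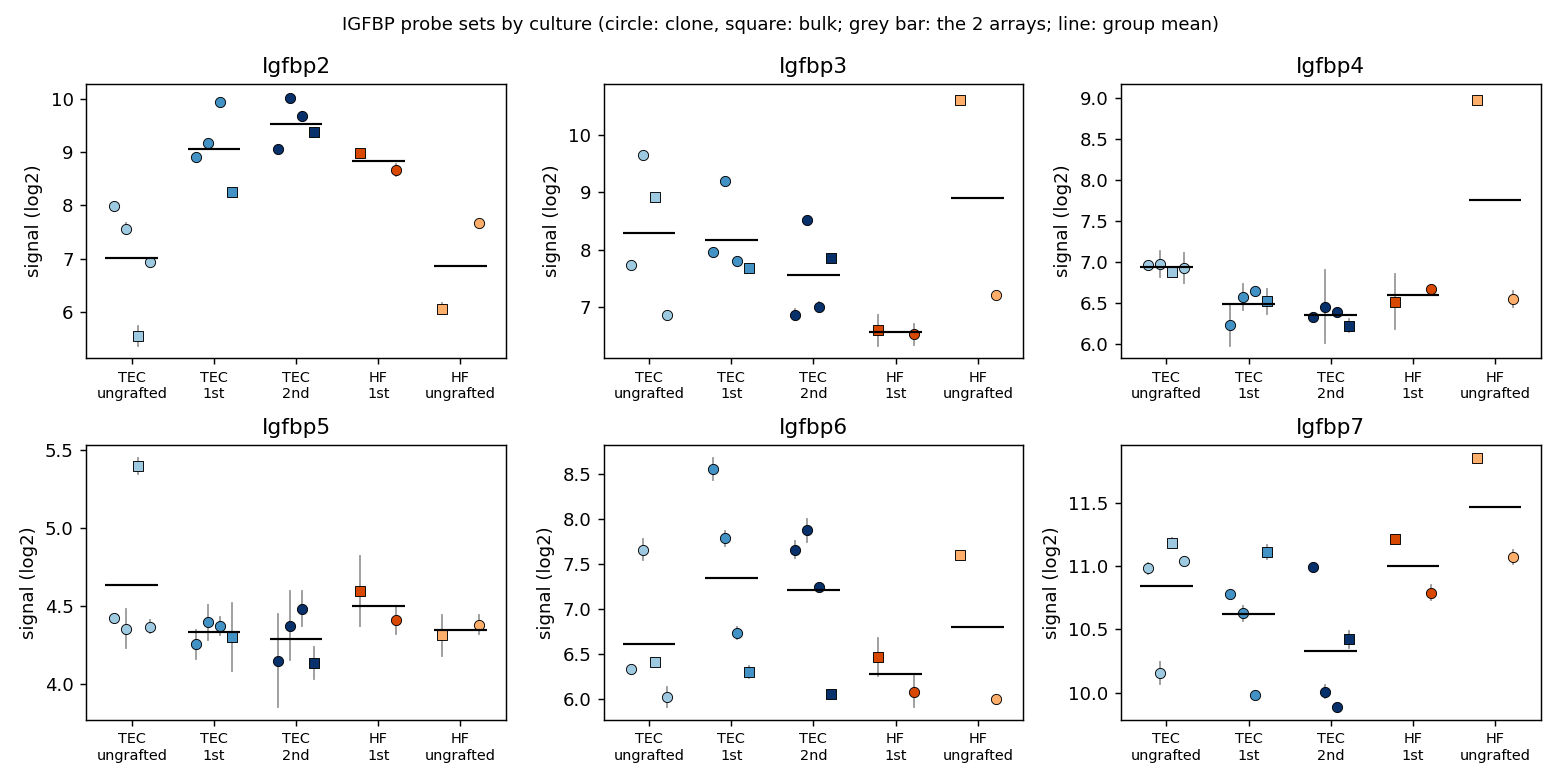
Log2 signal (vertical axis) of each IGFBP probe set in the 16 cultures, by group (horizontal axis). Circles are clonal and squares bulk cultures, a grey bar joins the 2 arrays of a culture and a black line is the group mean; Igfbp2 lies at 8.25 or higher in all 8 grafted TEC cultures and at 7.99 or lower in the ungrafted ones, while YR219P5_Bulk_V stands highest for Igfbp3, Igfbp4 and Igfbp7.

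The difference in Igfbp2 was present at each donor stage. Grafted E16 cultures averaged 9.29 (n = 4), against 7.99 in the ungrafted E16 culture, a difference of 1.30. Grafted P1 cultures averaged 9.81 (n = 2), against 7.56 in the ungrafted P1 culture, a difference of 2.25. Grafted 4-month cultures averaged 8.81 (n = 2), against 6.24 in the ungrafted ones (n = 2), a difference of 2.58. At all 3 stages the grafted cultures lay above the ungrafted ones without overlap, and with 1 or 2 ungrafted cultures a stage these differences were not tested. Such small groups often do not overlap, and the share of all probe sets apart by stage was not computed. Igfbp4 was also apart at all 3 stages, below each time. Igfbp5 was apart as well, below for E16 and 4-month and above for P1 cultures.

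Grafted HF cultures also had the higher Igfbp2 signals. YR219P5_RC had 8.99 and Clone_54 had 8.66 after a 1st transplantation, against 6.06 in YR219P5_Bulk_V and 7.66 in YR219P5cl7 before grafting. The groups did not overlap, which held for 41.4% of all probe sets with 2 cultures a group. The difference of 1.96 ± 0.70, or 3.90-fold, had an unadjusted p of 0.0147 and an adjusted p of 0.562 (limma), and it was 1.16 without YR219P5_Bulk_V. In this comparison 0 of 6 members and 0% of all probe sets were called, although 3 members and 1354 probe sets had an unadjusted p under 0.05. The change with a 1st transplantation differed between TEC and HF by 0.10 ± 0.86 (adjusted p = 0.984), and for that difference of differences 0 of 6 members and 0% of all probe sets were called, with 866 probe sets at an unadjusted p under 0.05.

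Of 14 markers of fibroblasts, feeder cells and dermal papilla, 2 fell over both grafted TEC groups, where 4.83% of all probe sets were called. The mean signal of the list was 6.25 to 6.65 in ungrafted TEC cultures, 5.98 to 6.10 after a 1st and 5.79 to 6.03 after a 2nd transplantation, with no overlap between grafted and ungrafted cultures. S100a4 fell by 1.46 and Twist1 fell by 1.04 over both grafted groups (adjusted p = 0.0108 and 0.0145, limma), and the other 12 genes of the list were not called. The part of this shift in the IGFBP signals was not tested, and in mixed RNA fewer cells of a type and less RNA per cell cannot be told apart. The 5 measured hair follicle markers had 0 calls and a median difference of 0.61 over both grafted groups, against 0.01 over all probe sets. Of 6 thymic epithelial markers Pax1, a factor of the pharyngeal pouch and early thymus, fell by 1.26 (adjusted p = 0.0287, limma), and the median of the list was -0.71. Of 9 probe sets for 6 general epithelial markers, the 2 for Krt8 fell, by 1.91 and 2.10 (adjusted p = 0.0371 and 0.0465), with a list median of -0.23. The part of these falls in the Igfbp2 difference was not tested.

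Igfbp4 was lower in every grafted TEC culture than in every ungrafted one, by a small amount. Its signal was 6.96, 6.98, 6.88 and 6.93 in the ungrafted cultures PRE16cl11_VII, PRP1cl11_VII, PRP4mo_bulk and PRP4mo_Cl09. After a 1st transplantation it was 6.23, 6.57, 6.65 and 6.52 in Clone_217, Clone_218, Clone_57 and Clone_907, and after a 2nd it was 6.34, 6.46, 6.40 and 6.22 in Clone_287, Clone_347, Clone_194 and Clone_354. Igfbp2 and Igfbp4 were the 2 members whose grafted and ungrafted TEC cultures did not overlap, a separation that 4.56% of all probe sets showed. The arrays of Clone_347 lay 0.888 apart for Igfbp4, more than the difference between the groups.

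Over both grafted groups the Igfbp4 difference was -0.52 ± 0.30 (adjusted p = 0.346), and after the 2nd transplantation -0.59 ± 0.34 (adjusted p = 0.378, limma). Neither was called with all 16 cultures in the fit. The fit shares its spread with the ungrafted HF group, where YR219P5_Bulk_V had 8.98 and YR219P5cl7 6.55 (SD 1.72). With the compared TEC cultures alone in the fit, the difference after the 2nd transplantation had an adjusted p of 0.0142 and that over both grafted groups one of 0.00740. The Igfbp4 SD between culture means was 0.04 in ungrafted TEC and 0.10 after the 2nd transplantation, against 0.25 between arrays of a culture. These culture means lay closer together than the arrays, so fits that rest on their spread may understate the error. Without YR219P5_Bulk_V, or without YR219P5cl7, the adjusted p was 0.00850 after the 2nd transplantation and 0.0482 after the 1st. In HF cultures Igfbp4 was 6.52 in YR219P5_RC and 6.67 in Clone_54 after grafting, against those values before it. The difference of -1.17 ± 0.48 was not called (unadjusted p = 0.0296, adjusted p = 0.562, limma) and was 0.04 without YR219P5_Bulk_V. Without YR219P5cl7, which leaves YR219P5_Bulk_V as the lone ungrafted HF culture, it was -2.39 and was called (adjusted p = 9.78e-06).

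In TEC cultures Igfbp3 varied more within a state than between states. It ran from 6.86 to 9.64 in ungrafted TEC cultures, from 7.68 to 9.19 after a 1st and from 6.87 to 8.51 after a 2nd transplantation. The means were 8.29 ± 1.23 before grafting, 8.16 ± 0.70 after a 1st and 7.56 ± 0.77 after a 2nd transplantation (SD, n = 4 each). None of these differences was called, and the one over both grafted groups was -0.43 ± 0.61 (adjusted p = 0.776, limma). Single cultures moved it, to 0.03 without PRP1cl11_VII, -0.22 without PRP4mo_bulk and -0.90 without PRP4mo_Cl09. In HF cultures Igfbp3 was 6.60 in YR219P5_RC and 6.53 in Clone_54 after grafting, against 10.60 in YR219P5_Bulk_V and 7.21 in YR219P5cl7 before it. That difference of -2.34 ± 1.00 had an unadjusted p of 0.0344 and an adjusted p of 0.562 (limma), and it was -0.65 without YR219P5_Bulk_V and -4.04 without YR219P5cl7.

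Igfbp7 ran from 9.89 in Clone_194 to 11.85 in YR219P5_Bulk_V, with the smallest gaps between arrays of a culture of the 6 members. Its means were 10.84 ± 0.47 in ungrafted TEC, 10.62 ± 0.48 after a 1st and 10.33 ± 0.50 after a 2nd transplantation (SD, n = 4 each). The HF means were 11.00 ± 0.30 after grafting and 11.46 ± 0.55 before it (SD, n = 2 each). The TEC cultures overlapped between all states, and the difference of -0.36 ± 0.26 over both grafted groups was not called (adjusted p = 0.483, limma).

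Igfbp6 ran from 6.0 in YR219P5cl7 to 8.56 in Clone_217. Its means were 6.61 ± 0.72 in ungrafted TEC, 7.35 ± 1.03 after a 1st and 7.21 ± 0.81 after a 2nd transplantation (SD, n = 4 each), and the ranges overlapped. The difference over both grafted groups was 0.67 ± 0.47 (adjusted p = 0.465, limma). Its direction was not shared by the donor stages, at 1.64 for E16, -0.67 for P1 and -0.04 for 4-month cultures.

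Igfbp5 lay between 4.14 and 4.60 in 15 cultures and at 5.40 in PRP4mo_bulk. Background levels were not analysed here, so these signals may or may not exceed them. Both arrays of PRP4mo_bulk were high, and the difference over both grafted groups, -0.33 ± 0.16, was not called (adjusted p = 0.272, limma) and was -0.07 without PRP4mo_bulk.

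The IGFBP genes did not shift as a block with grafting. After the 2nd transplantation 2 of the 6 had a higher mean than ungrafted TEC, and the median difference of the 6 was -0.43, against 0.01 over all probe sets. Over both grafted groups the median was -0.35, against 0.01. In HF cultures it was -0.50 after relative to before grafting, against 0.10 over all probe sets.

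**Figure D2:**
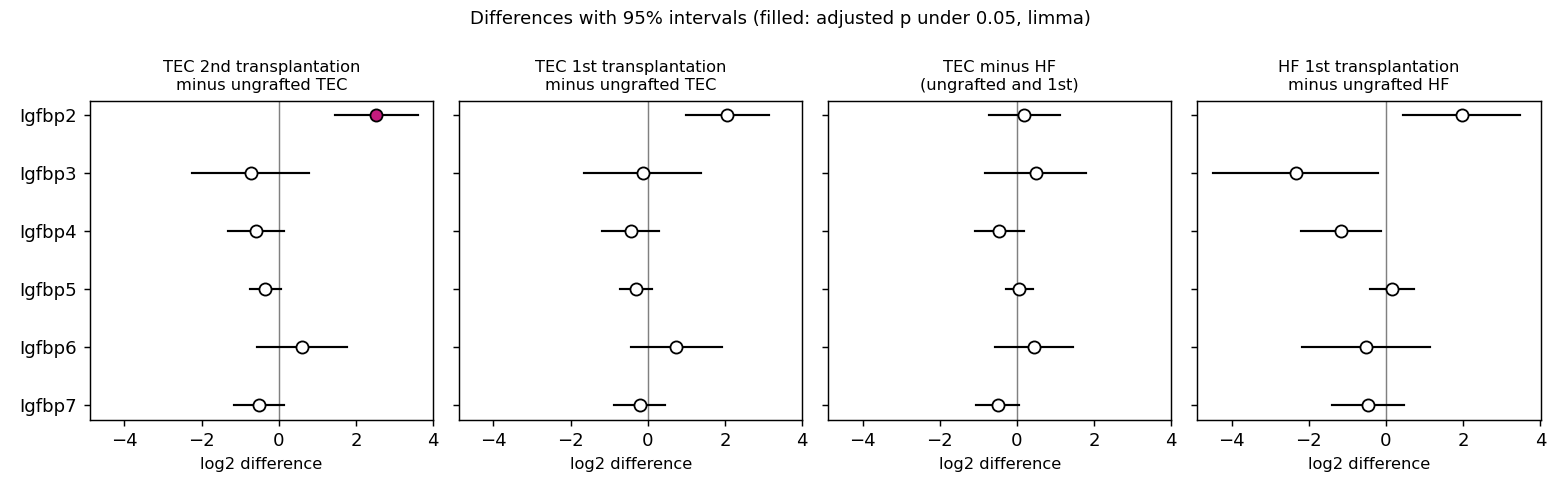
Log2 differences (horizontal axis) of the 6 probe sets in 4 comparisons, with 95% intervals from limma; a positive value is higher in the group named first, and a filled point has an adjusted p under 0.05. The filled point is Igfbp2 after the 2nd transplantation at 2.53.

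Between the tissues no IGFBP gene was called. In ungrafted cultures 0 of 6 members passed, with 1.55% of all probe sets called. After a 1st transplantation in both tissues 0 of 6 passed, with 0.0718% called, and between TEC after a 2nd and HF after a 1st transplantation 0 of 6 passed, with 0.0457% called. With both states combined 0 of 6 passed, with 4.17% called. The largest of the combined differences were Igfbp7 at -0.50 ± 0.26 (adjusted p = 0.269) and Igfbp3 at 0.49 ± 0.61 (adjusted p = 0.655, limma), TEC minus HF. All probe sets had a median of -0.11 between either grafted TEC group and grafted HF, and of 0.10 for HF after relative to before grafting, where YR219P5_RC with its high array enters.

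In the order of its group means, Igfbp2 had the 3 grafted groups above both ungrafted ones. The means ran 9.53 in TEC after a 2nd, 9.07 in TEC after a 1st and 8.83 in HF after a 1st transplantation, then 7.0 in ungrafted TEC and 6.86 in ungrafted HF cultures. Neighbours within the grafted groups differed by 0.47 ± 0.50 (TEC 2nd minus 1st) and 0.24 ± 0.61 (TEC 1st minus HF 1st), and those within the ungrafted groups by 0.14 ± 0.61 (TEC minus HF), with adjusted p of 1.00, 0.852 and 0.957 (limma). The step between grafted HF and ungrafted TEC was not tested. These 2 and 4 cultures did not overlap, and the share of all probe sets without overlap was not computed for them. Between ungrafted HF and ungrafted TEC, also 2 and 4 cultures, that share was 25.8%.

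For Igfbp3 the grafted HF cultures lay lowest: all grafted TEC cultures, at 6.87 or higher, were above YR219P5_RC at 6.60 and Clone_54 at 6.53. The difference after a 1st transplantation was 1.60 ± 0.86 (adjusted p = 0.345, limma). Igfbp3 and Igfbp5 were the 2 members without overlap in that comparison, and 25.5% of all probe sets had none.

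Donor stage was compared among the 12 TEC cultures, in a model that also held the transplantation state. All 3 bulk TEC cultures came from 4-month donors, and PRP4mo_Cl09 was the lone 4-month clone, while all E16 and P1 cultures were clonal. Culture form was not in the model, so 4-month stage and bulk form can hardly be told apart. Between 4-month and E16 donors 0 of 6 members were called, with 0.0914% of all probe sets called, and 2 members had an unadjusted p under 0.05. They were Igfbp6 at -1.35 ± 0.38 (unadjusted p = 0.00532, adjusted p = 0.267) and Igfbp2 at -0.88 ± 0.37 (unadjusted p = 0.0374, adjusted p = 0.413, limma). Igfbp6 was 6.30 and 6.06 in the grafted 4-month cultures and 6.41 and 6.02 in the ungrafted ones, while the E16 cultures had 8.56, 7.79, 7.66 and 7.88 after grafting and 6.33 before it. After grafting the 2 4-month and the 4 E16 cultures did not overlap, and the share of all probe sets apart was not computed for them. In other comparisons of 2 and 4 cultures that share was 24.6% to 25.8%. The ungrafted E16 culture lay among the 4-month ones. Without that culture, PRE16cl11_VII, the difference was -1.92 and was called (adjusted p = 0.0479).

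Between P1 and E16 donors 0 of 6 members were called, with 6.08% of all probe sets called. Igfbp7 came closest at -0.71 ± 0.19 (adjusted p = 0.0606, limma). It was 9.98 and 9.89 in the grafted and 10.15 in the ungrafted P1 culture, against 10.78, 10.63, 10.99 and 10.01 in the grafted E16 cultures and 10.98 in the ungrafted one. Clone_347, at 10.01, was the E16 culture that lay among the P1 values, and without it the difference was -0.84 (adjusted p = 0.0298). The difference also passed the threshold without Clone_907 (-0.72, adjusted p = 0.0473) and without Clone_287 (-0.56, adjusted p = 0.0406).

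**Figure D3:**
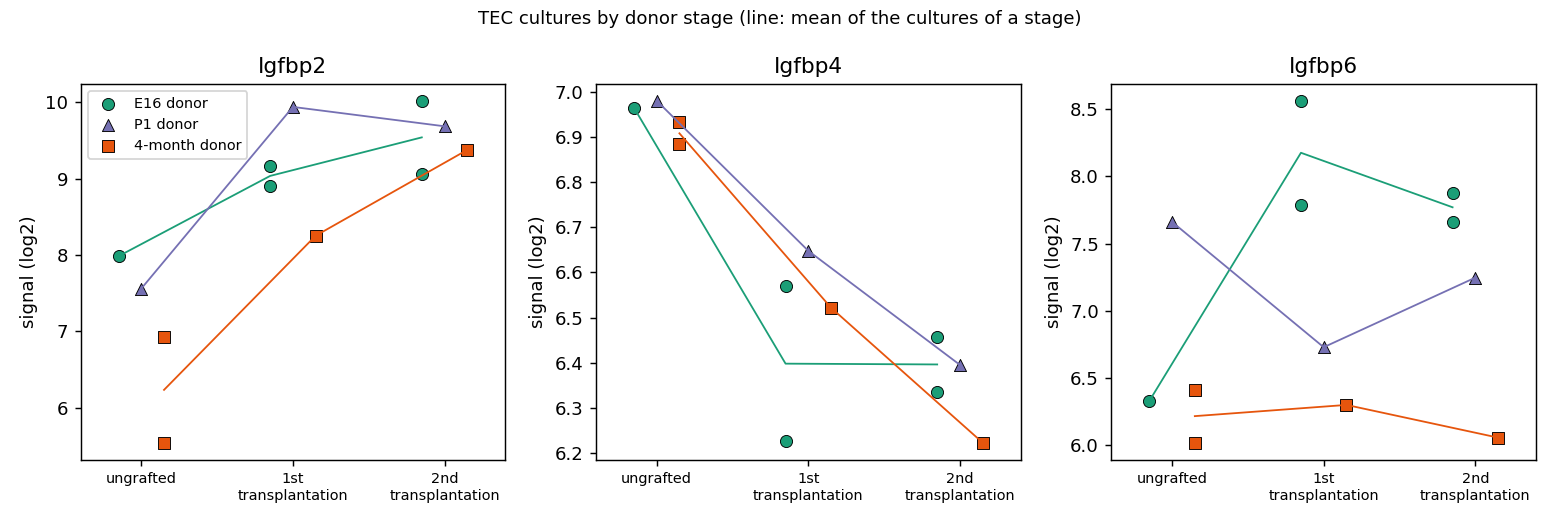
Log2 signal (vertical axis) of Igfbp2, Igfbp4 and Igfbp6 in the 12 TEC cultures by number of transplantations (horizontal axis), with a symbol for each donor stage and lines through the stage means. Igfbp2 is higher and Igfbp4 lower after grafting at each stage, and Igfbp6 stays between 6.02 and 6.41 in the 4-month cultures.

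The ungrafted HF bulk culture YR219P5_Bulk_V had the highest signal of all 16 cultures for Igfbp3, Igfbp4 and Igfbp7, 3 of 6 members, while 7.99% of all probe sets had their highest value there. Relative to the clonal culture YR219P5cl7, its signal was 10.5-fold higher for Igfbp3, 5.39-fold for Igfbp4, 3.04-fold for Igfbp6 and 1.72-fold for Igfbp7. Igfbp2 differed the other way, at 6.06 in the bulk and 7.66 in the clonal culture. With 1 culture of each kind these differences have no replicate check. The Igfbp4 gap to the next highest culture, PRP1cl11_VII at 6.98, was 2.0, and 0.562% of all probe sets had a gap over 1 there.

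The same culture had the highest Thy1, at 6.77 against 4.48 in YR219P5cl7, and the highest Vim, at 11.81 against 10.65, both genes of fibroblasts and other mesenchymal cells. They were the 2 of 14 genes of the fibroblast list that peaked there. The next highest culture had 6.64 for Thy1 (PRP1cl11_VII) and 11.38 for Vim (YR219P5_RC). Relative to YR219P5cl7, Pdgfra, Pdgfrb, Corin and Alpl were lower and Col1a2, Col3a1 and Twist1 higher, by 0.33 at most. Col1a1 was 7.15 against 6.88, and Dcn and Lum, which define dermal fibroblasts, were 3.90 against 4.08 and 2.48 against 2.46. S100a4 was 9.37 against 8.27 and Fn1, fibronectin, 11.79 against 11.08. The epithelial adhesion genes Epcam, at 7.64 against 9.73, and Cdh1, at 9.19 against 10.71, were at their lowest of all 16 cultures there, while Tp63, a factor of basal epithelium, was at its highest, at 10.10 against 9.39. The mean of the list was 6.53 in YR219P5_Bulk_V and 6.11 in YR219P5cl7, and the part of these markers in the IGFBP signals was not tested.

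**Figure D4:**
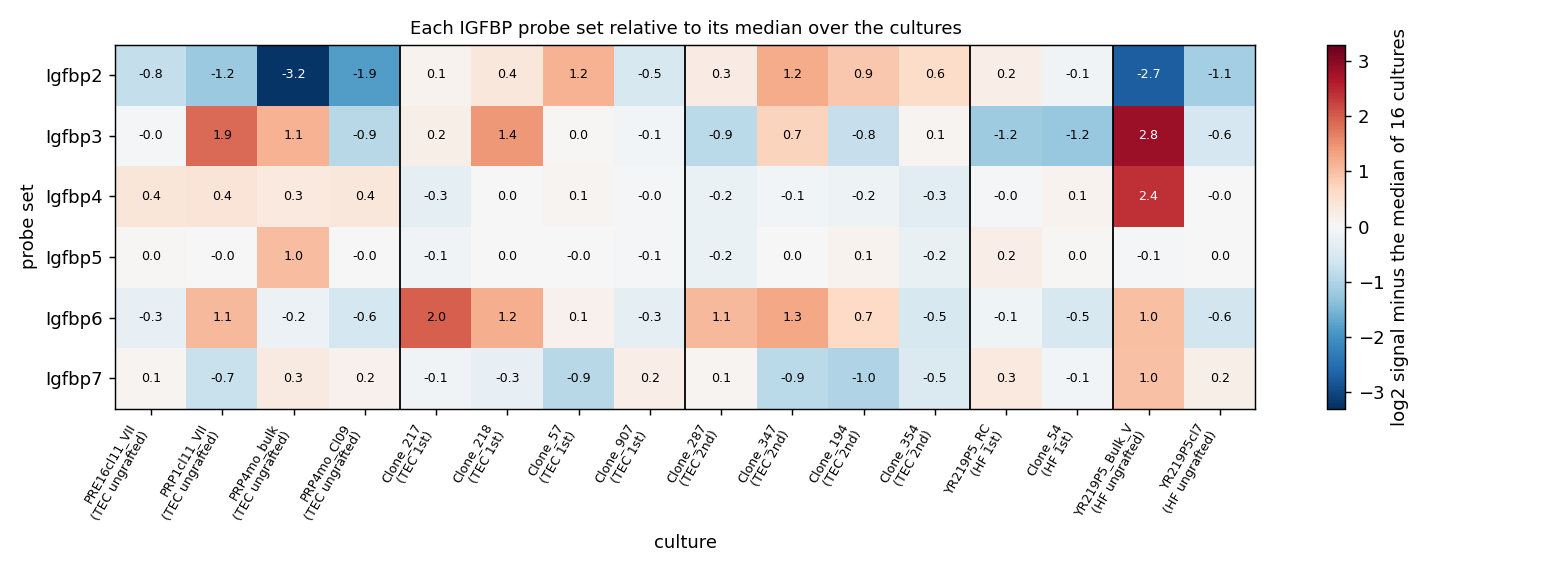
Signal of each probe set minus its median over the 16 cultures (colour and printed value, log2), with cultures in columns by group and probe sets in rows. Igfbp2 is below its median in all 6 ungrafted cultures and in the grafted cultures Clone_907 and Clone_54. YR219P5_Bulk_V is the column with Igfbp3 at 2.8 and Igfbp4 at 2.4 above their medians.

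The wider IGF pathway was read from 5 lists of 40 genes, of which 33 were measured by 34 probe sets and the others were not analysed here. Over both grafted TEC groups 3 of the 34 rose and 2 fell, where 4.83% of all probe sets were called, and the median was -0.01. After the 2nd transplantation 2 rose and 2 fell (3.86% of all probe sets called), and after the 1st 0 rose and 2 fell (0.516% called). In HF cultures 0 of the 34 were called with grafting (0% called). With both states combined 2 were higher and 0 lower in TEC than in HF (4.17% called). No ligand was called in any comparison: Igf1 lay between 3.45 and 3.60 after a 2nd transplantation, against 3.32 to 3.93 in ungrafted TEC cultures, and Igf2 between 5.21 and 5.84 against 5.34 to 5.65. Among 4 receptors in 5 probe sets none was called with grafting. Igf1r, the receptor that signals for both IGFs, averaged 8.80 ± 0.09 in ungrafted TEC, 8.64 ± 0.13 after a 1st and 8.74 ± 0.25 after a 2nd transplantation (SD, n = 4 each).

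Among carriers, proteases and their inhibitors, Stc2 rose over both grafted TEC groups. Stc2 encodes stanniocalcin-2, an inhibitor of pappalysin, and averaged 6.72 ± 0.45 in ungrafted TEC, 8.64 ± 0.99 after a 1st and 8.36 ± 0.81 after a 2nd transplantation (SD, n = 4 each). The difference over both grafted groups was 1.78 ± 0.40, or 3.44-fold (adjusted p = 0.0250, limma). Stc2 was not called after either transplantation alone, and its grafted cultures, at 7.37 or higher, overlapped the ungrafted ones, at 7.38 or lower. In HF cultures Stc2 averaged 8.72 ± 0.05 after and 6.94 ± 0.46 before grafting (SD, n = 2 each), a difference of 1.78 ± 0.65 that was not called (adjusted p = 0.562, limma). Pappa itself differed by -0.08 ± 0.14 over both grafted TEC groups (adjusted p = 0.817, limma).

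Among intracellular genes, Grb10 fell with grafting, with 6.15 ± 0.93 in ungrafted TEC, 4.15 ± 0.17 after a 1st and 4.15 ± 0.12 after a 2nd transplantation (SD, n = 4 each). Grb10 encodes an adaptor that binds the insulin and IGF1 receptors and restrains their signalling, and it was 3.99-fold lower over both grafted groups (adjusted p = 0.00373, limma). It was 4.21 ± 0.19 in grafted and 4.33 ± 0.28 in ungrafted HF cultures (SD, n = 2 each), and was higher in ungrafted TEC than in ungrafted HF by 1.81 (adjusted p = 0.0414). Shc1, an adaptor downstream of the same receptors, fell by 0.51 and Pdpk1, a kinase that activates Akt, rose by 0.54 over both grafted groups (adjusted p = 0.00874 and 0.0177). Akt2 rose by 0.40 after the 2nd transplantation (adjusted p = 0.0351).

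Of 9 measured genes for secreted proteins with an IGFBP-type domain, Ccn2, which encodes connective tissue growth factor, rose over both grafted TEC groups. It averaged 8.43 ± 0.97 in ungrafted TEC, 10.11 ± 0.38 after a 1st and 9.79 ± 0.82 after a 2nd transplantation (SD, n = 4 each), and was 2.87-fold higher over both grafted groups (adjusted p = 0.0425, limma). Ccn2 was not called after either transplantation alone, and its grafted TEC cultures, at 8.93 or higher, overlapped the ungrafted ones, at 9.81 or lower. HF cultures had 10.16 ± 0.42 after and 10.24 ± 0.12 before grafting (SD, n = 2 each).

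Between the tissues, Insr, the insulin receptor, was higher in TEC than in HF cultures with both states combined, by 1.01 and 1.00 in its 2 probe sets (adjusted p = 0.00981 and 0.0107, limma). Igf1r differed by 0.34 and Igf2r, which takes up and clears IGF2, by 0.29, and neither was called (adjusted p = 0.0958 and 0.334). Between P1 and E16 donors 2 of the 34 pathway probe sets were called, against 6.08% of all probe sets. Akt1 was higher in P1 by 0.63 and Ccn4, which encodes another protein with an IGFBP-type domain, by 0.93 (adjusted p = 0.0469 and 0.0334, limma).

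Likeness was measured as Pearson's r over the 16 cultures, among 4813 probe sets of other genes that span at least 1 log2 unit. The cultures share group structure, so a high r describes these cultures and carries no test. The 3 genes most like Igfbp2 were B3gnt3 (0.968), Net1 (0.914) and Gpr15lg (0.895). B3gnt3 ran from 5.28 in PRP4mo_bulk to 8.24 in Clone_347, the cultures with the lowest and highest Igfbp2. Nearest to Igfbp4 were Ramp3 (0.960), Bace1 (0.958) and Reep1 (0.945), each highest in YR219P5_Bulk_V, and without that culture r fell to 0.695, 0.700 and 0.596. Nearest to Igfbp3 were Adcy2 (0.861), Kcnq5 (0.800) and Rgs4 (0.793), with 0.780, 0.737 and 0.654 without YR219P5_Bulk_V. For Igfbp5 they were Cyp1b1 (0.927), Nefl (0.926) and Adamtsl3 (0.915), all highest in PRP4mo_bulk, and Spearman's rho was lower, at 0.462, 0.594 and 0.215. For Igfbp6 they were Tsku (0.771), Plbd2 (0.741) and Sec24d (0.740), and for Igfbp7 Tmem53 (0.895), Prpf18 (0.883) and Taf13 (0.850).

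Among the 15 pairs of members, Igfbp2 and Igfbp7 had a Pearson's r of -0.70 over 16 cultures, -0.67 over the 12 TEC cultures and -0.61 without YR219P5_Bulk_V. Igfbp2 and Igfbp4 had -0.65, -0.69 and -0.67, so which of these pairs was the stronger depended on the cultures taken. Igfbp3 and Igfbp4 had 0.64, and 0.27 without YR219P5_Bulk_V. Igfbp2 and its neighbour Igfbp5 had -0.51 by Pearson's r (-0.68 over the TEC cultures) and -0.09 by Spearman's rho, with PRP4mo_bulk lowest for the one and highest for the other. These are descriptions of cultures that share groups and donor stages, with no test.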

How the data were processed

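RNA from 16 rat epithelial cultures was measured on Affymetrix rat gene arrays, 2 arrays a culture. Per the labels, 100 ng of total RNA was amplified and labelled by a whole transcript sense target kit. The deposited values are log2 signals, and the submitters' processing notes name RMA and Affymetrix Expression Console as the authors' tools. RMA evens the distributions of the arrays and can shrink differences, and its version and the array build are not given in the sources used here. Of 29215 probe sets, 15316 carried 1 gene symbol in the platform annotation and were tested without a filter on level. Arrays of a culture were averaged. limma 3.58.1 (R 4.3.3; lmFit, eBayes) was run on culture means, 1 coefficient for each of the 5 groups, and for donor stage on the TEC cultures with transplantation state as a second factor. Benjamini-Hochberg adjustment ran over the 15316 probe sets of a comparison. Errors of differences are standard errors (SE), those of levels standard deviations (SD). The number of cultures limits the precision, and an array has no count depth. The fit was tested on simulated data.

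The members and gene lists were chosen with earlier results of these data known. Named genes were all members, pathway genes past the threshold and the 3 genes most like each member, and Igf1, Igf2, Igf1r, Igf2r and Pappa were named outside this rule after their values were seen. The alternatives were another centring or normalization, other probe set filters, trended robust variances, subsets of cultures, arrays with culture as a random block and leaving out each culture. The difference between array 1 and array 2 correlated at a median of -0.01 over 120 pairs of cultures. It ran from -0.635 to 0.574, with 23 pairs over 0.1. Some cultures thus shared array deviations, and whether arrays were processed in batches cannot be told from their numbers.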

Additional observations from a re-analysis of the deposited data

Results flagged for a closer look

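Igfbp5 in the ungrafted 4-month TEC bulk culture PRP4mo_bulk stood apart from the other ungrafted TEC cultures, at 5.40 against 4.42 in the nearest one. The gap took up 0.935 of the range of the group, more than Dixon's criterion allows for 4 samples. It was the 1 such value in 18 groups tested, and chance alone gives about 1 in 20.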

How the results depend on the processing

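Counts over all probe sets moved more: after the 2nd transplantation 591 became 35 among clonal cultures, 150 without PRP4mo_Cl09 and 251 without Clone_347, and after the 1st 79 became 1183 when arrays were the unit with culture as a random block. Counts of IGFBP probe sets past the threshold moved by 1 at most. After the 2nd transplantation the count of 1 became 2 with the compared cultures alone in the fit and 0 among clonal cultures, and over both grafted groups it became 2 with the compared cultures alone. After the 1st transplantation it was 1 in place of 0, with Igfbp2, when arrays were the unit with culture as a random block (adjusted p = 0.000184), also with the replicate block (adjusted p = 0.000267, count 1). These fits take 1 correlation between the arrays of a culture for all probe sets. For Igfbp2 the SD was 0.781 between cultures of a group and 0.115 between arrays of a culture, so such fits can understate its error. In the same fits, with and without the replicate block, the count was 1 for 4-month against E16 donors and 1 for P1 against E16 donors, and for P1 against E16 it was also 1 after a further quantile normalization. The replicate block changed no other call. Leaving out each culture in turn gave counts of 0 to 2 after the 2nd transplantation, 0 to 1 after the 1st and 1 to 2 over both grafted groups. It gave 0 to 1 for ungrafted TEC against HF, for TEC against HF in both states, for HF after against before grafting, for the difference of differences and for each donor stage comparison. Without YR219P5cl7 Igfbp4 was called in the HF comparison (-2.39, adjusted p = 9.78e-06), leaving YR219P5_Bulk_V as the lone ungrafted HF culture, assumed to vary like the others. In the same setting it was called between ungrafted TEC and HF (-2.04, adjusted p = 1.01e-05), over both states (-1.07, adjusted p = 6.77e-05) and for the difference of differences (1.94, adjusted p = 0.000505). The causes were not tested. Igfbp2 without array 1 of YR219P5_RC, an alternative chosen after seeing the data, kept its calls. Of the differences of single genes, 1743 kept direction and side of the threshold, 3 fell below it, 23 passed it, 55 uncalled ones changed sign and 0 called ones did. With 2 cultures a group the HF comparisons resolve large differences at most, and signals near 4 may lie at background.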
